A study of Saccharomyces cerevisiae BY4741 with 2 samples.

Results

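The large subunit of the yeast cytosolic ribosome is built from ribosomal RNA and 46 proteins encoded by 81 genes, and all 81 were found among the 7134 rows of the sense-strand count table. They were chosen by name, as RPL followed by a number with or without a paralog letter, or as the stalk genes RPP0, RPP1A, RPP1B, RPP2A and RPP2B, and matched to the count table by systematic name. Of the 46 proteins, 11 come from a single gene and 35 from a pair of paralogs. A coding intron was annotated in 53 of the genes.

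The counts come from strand-specific RNA sequencing of total RNA of Saccharomyces cerevisiae (labelled BY4741), depleted of ribosomal RNA, in 2 strains with 2 libraries each. The deletion strain was MATa and lacked DBP2, the gene of a DEAD-box RNA helicase (dbp2::KanMx), and its listed markers were ura3Δ0, leu2Δ0 and his3Δ0 together with TRP1, met- and lysΔ. The wild type was MATa with his3Δ1 and leu2Δ0 besides met15Δ0 and ura3Δ0. Both strains were grown at 30 °C in rich medium with 2% glucose to mid-log phase. The markers differ between the strains, so the absence of DBP2 and the rest of the strain background cannot be told apart. Separate cultures are not mentioned for libraries of the same strain, so every p-value reflects library-to-library spread that may be purely technical. The libraries are called deletion 2, deletion 3, wild type 1 and wild type 2, after the table's columns, and held 36028173, 24961576, 10860000 and 12586037 counts. DBP2 itself had 66 and 237 counts in the deletion libraries, against 7320 and 9662 in wild type, which matches the labels.

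The large subunit joins amino acids at the peptidyl transferase centre, and the growing chain leaves through an exit tunnel. Mobile stalks on its flanks recruit elongation factors and release spent transfer RNA. In budding yeast most of its genes are kept as paralog pairs whose messenger RNAs are among the most abundant of a growing cell, and their transcription follows nutrient signals through the factors Rap1, Fhl1, Ifh1 and Sfp1.

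Because paralogs share much of their sequence, a first question for every value is how well reads can tell them apart. The coding sequences of the 35 pairs were from 68.9% (RPP1A and RPP1B) to 99.4% (RPL1A and RPL1B) identical, 11 pairs were at least 95% identical, and 12 pairs encode identical proteins. The sources used here do not give how reads that fit both paralogs were counted. The shortest pair is shown because it lets the problem be read directly. RPL41A (chrIV:130407-130484, minus strand) and RPL41B (chrIV:221724-221801, minus strand), in the R64 build, encode the same protein of 25 residues and differ by the substitution C9T, counted from the first coding base of RPL41A, which is in capitals below.
RPL41A: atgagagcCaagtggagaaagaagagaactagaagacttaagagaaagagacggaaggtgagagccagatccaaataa
RPL41B: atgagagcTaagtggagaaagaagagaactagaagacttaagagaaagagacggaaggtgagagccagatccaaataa
A read that lies within the coding sequence and misses that base fits both genes, so the split between such paralogs is uncertain. Sums over a pair are therefore given beside the single genes.

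As a group, the large subunit genes held about the same part of the transcriptome in both strains. They took 8.87% and 8.52% of all counts in the deletion libraries, against 9.35% and 8.82% in wild type, and the strains overlap. Relative to the typical feature the median log2 fold change (deletion over wild type) of the 81 genes was -0.23, with 0.01 over all 6124 features tested. That shift was similar in size to the one between libraries of a single strain: 69 of 81 members were higher in deletion 2 than in deletion 3 (median log2 ratio 0.21) and 70 of 81 higher in wild type 1 than in wild type 2 (0.25), against 50.9% of all features in either case. When libraries were scaled by their totals the members' median was 0.22, still below the median of all features at 0.46. Offsets that follow a loess curve of fold change on abundance gave 0.27, above the median of all features at -0.00. The direction relative to the typical feature thus turned with the offsets, so no direction holds for the group.

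Within that group, single members moved apart over a range of 3.09 on the log2 scale. By edgeR's quasi-likelihood test, with p-values adjusted over all features, 23 members were lower and 7 higher in the deletion strain, and 51 did not pass an adjusted p of 0.05. Over all features, 20.7% were called lower, 21.2% higher and 41.9% in either direction. The members' shares were 28.4% lower and 8.64% higher. By CPM (counts relative to library size, scaled by TMM, the trimmed mean of M-values), both deletion libraries lay below both wild-type libraries for 38 members and above them for 12, against 36.3% and 38.3% of all features. Of the 23 falls, 13 were at least 2-fold, and of the 7 rises, 3 were. The small subunit genes, the most similar group, had 20 of 56 lower and 2 higher, with a median of -0.39 (0.06 under library totals and 0.17 with the offsets). Scaling decided much of this count: with library totals 14 members were lower and 23 higher (over all features 9.52% and 40.9%), and with abundance-dependent offsets 11 were lower and 23 higher (18.9% and 18.7%). Only 9 falls and 3 rises kept their call under all 10 alternatives run, which were 4 scalings, no filter, DESeq2 and the omission of each library. The falls were RPL9B, RPL1A, RPL1B, RPL8A, RPL33B, RPL41A, RPL23B, RPL30 and RPL2A, and the rises were RPP2B, RPL43A and RPL5. The share of all features that kept a call under all 10 was not computed, so these counts have no background.

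**Figure D1:**
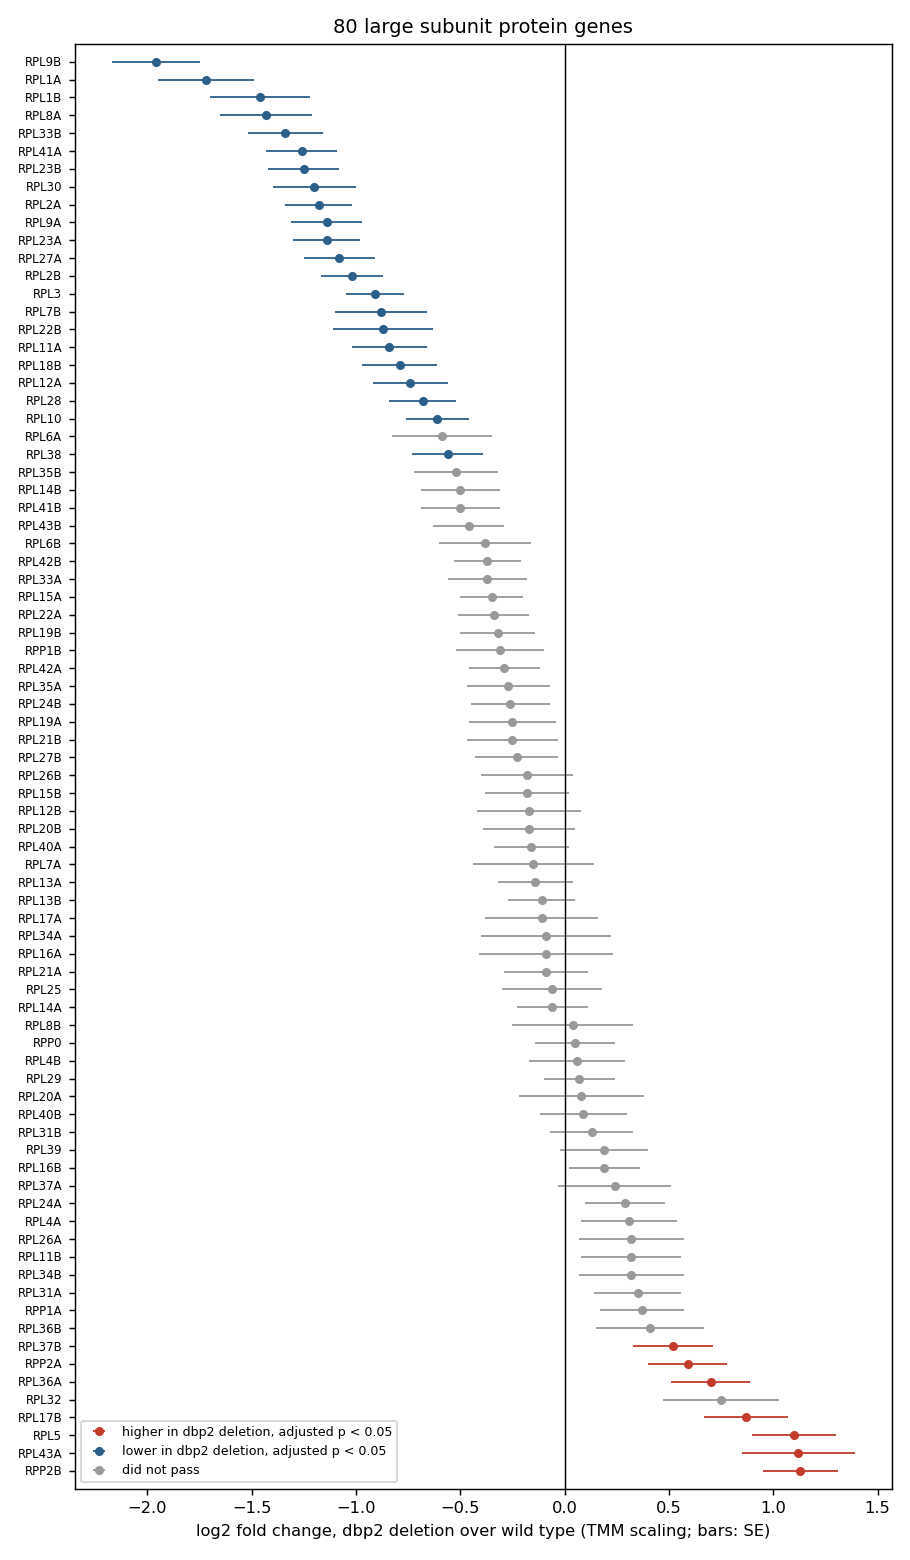
Log2 fold change (dbp2 deletion over wild type, x axis, TMM scaling) of 80 large subunit genes, ordered by value, with bars for the standard error. Values run from -1.96 for RPL9B to 1.13 for RPP2B; red points are the 7 genes called higher, blue points 22 of those called lower, and grey points did not pass.

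**Figure D2:**
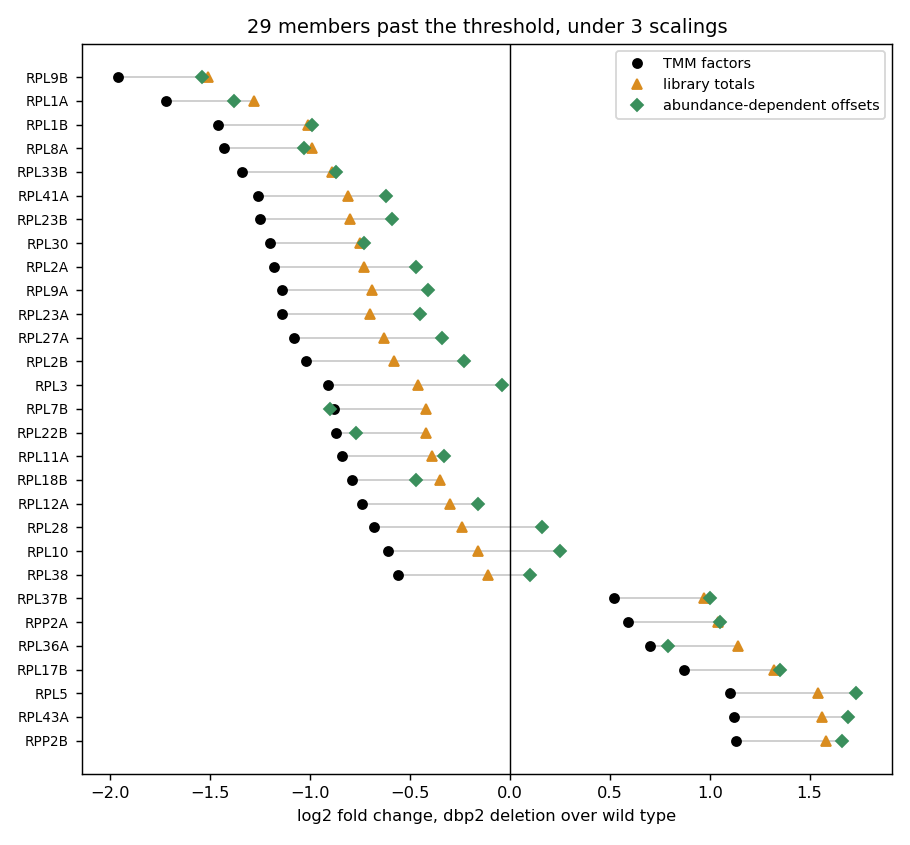
Log2 fold change (dbp2 deletion over wild type, x axis) of 29 members past the threshold under TMM factors (circles), library totals (triangles) and abundance-dependent offsets (diamonds). RPL28, RPL10 and RPL38 change sign with the offsets, while RPL9B stays at or below -1.51 and RPL5 stays at or above 1.10.

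The P stalk, which draws elongation factors to the ribosome, held 1 of the 3 rises of at least 2-fold, which differ among themselves by less than their standard errors. RPP2B (YDR382W), an acidic P2 protein of the stalk tip, had 743 and 830 CPM in the deletion libraries, against 377 and 344 CPM in wild type, and was 2.18-fold higher (log2 fold change 1.13, SE 0.18, adjusted p = 0.00144). Its partner paralog RPP2A had 493 and 392 CPM in the deletion libraries, against 303 and 285 CPM in wild type (0.59, SE 0.19, adjusted p = 0.0351). For both P2 genes the strains did not overlap, and their summed counts were higher under all alternatives (log2 fold change 0.91, SE 0.17, adjusted p = 0.00305). The call of RPP2A alone did not hold when wild type 1, wild type 2 or deletion 2 was left out (adjusted p 0.0761, 0.112 and 0.276). RPP0, the protein that anchors the stalk to ribosomal RNA, had 2348 and 1764 CPM in the deletion libraries, against 2116 and 1858 CPM in wild type, and the strains overlap (0.05, SE 0.19, adjusted p = 0.855). It passed as higher under library totals (0.49, adjusted p = 0.0312) and with the offsets (0.76, 0.00853). Neither P1 gene passed: the log2 fold change was 0.37 for RPP1A (adjusted p = 0.162) and -0.31 for RPP1B (adjusted p = 0.265). RPP1A passed as higher under library totals (0.81, adjusted p = 0.00296) and with the offsets (0.99, 0.00311). RPL12A, a protein at the stalk base, was lower, with 562 and 543 CPM in the deletion libraries, against 859 and 991 CPM in wild type (-0.74, SE 0.18, adjusted p = 0.00921), a call lost under library totals, with the offsets and without wild type 2 (adjusted p = 0.0712). In all, 2 of 7 stalk genes were higher and 1 lower, where 21.2% and 20.7% of all features were. Under library totals and with the offsets 4 were higher and 0 lower, where 40.9% and 18.7% of all features were higher.

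On the opposite flank, both genes of the L1 stalk, which contacts transfer RNA as it leaves, fell. RPL1A had 101 and 85.9 CPM in the deletion libraries, against 361 and 257 CPM in wild type (-1.72, SE 0.23, adjusted p = 5.53e-04). RPL1B had 235 and 215 CPM in the deletion libraries, against 757 and 481 CPM in wild type (-1.46, SE 0.24, adjusted p = 0.00152). These coding sequences differ at only 4 bases, so the split is uncertain, but the sum does not depend on it: it was 336 and 301 CPM in the deletion libraries, against 1118 and 738 CPM in wild type (-1.54, SE 0.23, adjusted p = 0.00104). RPL1 was the protein with the largest fall in summed counts, and its adjusted p reached at most 0.00648 over the alternatives.

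RPL5 and RPL11 travel together with the 5S ribosomal RNA into the assembling subunit. RPL5 (YPL131W, single copy, chrXVI:303121-304014) rose, with 1612 and 1267 CPM in the deletion libraries, against 759 and 588 CPM in wild type, 2.14-fold higher (1.10, SE 0.20, adjusted p = 0.00293). RPL11A had 375 and 346 CPM in the deletion libraries, against 626 and 663 CPM in wild type (-0.84, SE 0.18, adjusted p = 0.00532), a call lost under library totals and with the offsets. RPL11B had 173 and 128 CPM in the deletion libraries, against 141 and 99.8 CPM in wild type (0.32, SE 0.24, adjusted p = 0.297). Every deletion library lay above wild type for RPL5 and below it for RPL11A, while the strains overlap for RPL11B, which passed as higher under library totals (0.77, adjusted p = 0.0134). The summed RPL11 counts were lower (-0.58, adjusted p = 0.0259), but not under library totals or with the offsets, nor without deletion 3, wild type 1 or wild type 2.

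Of the 14 genes whose proteins line the exit tunnel or its rim, 1 was called higher and 0 lower by edgeR, where 21.2% and 20.7% of all features were. At an unadjusted p below 0.05, 1 was lower, and DESeq2 called 0 lower. Under library totals 6 were higher and with the offsets 4, where 40.9% and 18.7% of all features were. Under either, 0 were lower, where 9.52% and 18.9% of all features were. The gene called higher was RPL17B, with 579 and 501 CPM in the deletion libraries, against 334 and 255 CPM in wild type (0.87, SE 0.20, adjusted p = 0.00848), a call just lost without wild type 2 (adjusted p = 0.0505). RPL39, a small protein of the tunnel wall, had 1328 and 972 CPM in the deletion libraries, against 1120 and 901 CPM in wild type (0.19, SE 0.21, adjusted p = 0.495), with overlapping strains. It passed as higher under library totals (0.63, adjusted p = 0.0152) and with the offsets (0.83, 0.00919). The median of the 14 was 0.00 (0.45 under library totals and 0.38 with the offsets).

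A list of 9 genes was read for proteins near the catalytic centre or added late, and it does not hold the RPL2 genes. Of these, 2 were lower and 0 higher, where 20.7% and 21.2% of all features were. Under library totals 1 was lower and 3 higher, where 9.52% and 40.9% of all features were. With the offsets 0 were lower and 4 higher, where 18.9% and 18.7% were. RPL3, which reaches towards the peptidyl transferase centre, had 6779 and 7141 CPM in the deletion libraries, against 13200 and 12900 CPM in wild type (-0.91, SE 0.14, adjusted p = 0.00140). RPL10, added at the end of subunit maturation, had 7888 and 6984 CPM in the deletion libraries, against 10970 and 11670 CPM in wild type (-0.61, SE 0.15, adjusted p = 0.0114), a call lost under library totals and without wild type 2 (adjusted p = 0.0895). These are among the most counted members, where abundance-dependent offsets act most: with them RPL3 stood at -0.04 and RPL10 at 0.25, and neither passed. The call of RPL3 held in the other 9 alternatives.

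Of 3 genes for proteins known to act on introns of their own genes or their paralog's, 2 were lower. RPL30, whose protein binds its own transcript and blocks its splicing, had 271 and 215 CPM in the deletion libraries, against 604 and 509 CPM in wild type, 2.29-fold lower (-1.20, SE 0.20, adjusted p = 0.00190). RPL22B had 47.1 and 48.9 CPM in the deletion libraries, against 108 and 68.1 CPM in wild type (-0.87, SE 0.24, adjusted p = 0.0170), a call lost under library totals and without wild type 1. Its paralog RPL22A (-0.34, adjusted p = 0.125) did not pass, and its value was positive under library totals and with the offsets. Over all members, 12 of 53 intron-containing genes were lower and 4 higher (median -0.23), and 11 of 28 without one were lower and 3 higher (median -0.22), where 20.7% of all features were lower and 21.2% higher, and the difference was not tested. Under library totals the genes with an intron were 7 lower and 13 higher (median 0.22) and those without were 7 lower and 10 higher (0.23). With the offsets they were 6 lower and 13 higher (0.31), and 5 lower and 10 higher (0.26). Over all features, 9.52% were lower and 40.9% higher under library totals, and 18.9% and 18.7% with the offsets. The sources used here do not give whether intron reads were counted, and the introns of RPL7A and RPL7B also hold the snoRNA genes SNR39 and SNR59.

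Among the remaining 43 genes, which encode the other proteins of the shell and interface, 15 were lower and 3 higher, where 20.7% and 21.2% of all features were. Under library totals 10 were lower and 8 higher, where 9.52% and 40.9% of all features were. With the offsets 7 were lower and 10 higher, where 18.9% and 18.7% were. RPL9B (YNL067W, chrXIV:499681-500256) fell most of all members, with 147 and 123 CPM in the deletion libraries, against 582 and 468 CPM in wild type, 3.89-fold lower (-1.96, SE 0.21, adjusted p = 1.94e-04). RPL9A, the source of most RPL9 counts, had 1589 and 1467 CPM in the deletion libraries, against 3638 and 3084 CPM in wild type (-1.14, SE 0.17, adjusted p = 9.77e-04). The summed RPL9 counts were lower under all alternatives (-1.22, SE 0.17, adjusted p = 7.91e-04). RPL23B, a protein at the subunit interface, had 759 and 794 CPM in the deletion libraries, against 1997 and 1704 CPM in wild type (-1.25, SE 0.17, adjusted p = 7.17e-04), and RPL23A was lower too (-1.14, adjusted p = 8.29e-04). RPL2A, whose protein lies near the peptidyl transferase centre although it is counted here among the 43, had 1250 and 1163 CPM in the deletion libraries, against 2656 and 2795 CPM in wild type (-1.18, SE 0.16, adjusted p = 7.07e-04). RPL2B was lower as well (-1.02, adjusted p = 9.43e-04). In each of these 3 proteins both paralogs were called lower, which was the case for 5 pairs in all, RPL1 among them. The calls of RPL9A, RPL23A and RPL2B were lost with the offsets only. RPL28, the cycloheximide-resistance gene CYH2, had 6353 and 5422 CPM in the deletion libraries, against 9988 and 8924 CPM in wild type (-0.68, SE 0.16, adjusted p = 0.00847). Other falls included RPL27A (-1.08), RPL7B (-0.88), RPL18B (-0.79) and RPL38 (-0.56), and RPL8A, RPL33B and RPL41A are described with their pairs. RPL28, RPL18B and RPL38 lost their calls under library totals and with the offsets, RPL27A with the offsets only, and RPL7B under library totals and without wild type 1. RPL38 also lost its call when any 1 of the 4 libraries was left out.

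Of the remaining rises, RPL36A had 82.7 and 72.9 CPM in the deletion libraries, against 51.0 and 45.0 CPM in wild type (0.70, SE 0.19, adjusted p = 0.0179), a call lost without deletion 2 (adjusted p = 0.105) or wild type 2 (0.0629). RPL37B had 495 and 451 CPM in the deletion libraries, against 358 and 303 CPM in wild type (0.52, SE 0.19, adjusted p = 0.0495). It lay at the threshold and lost its call with RLE factors, with TMM factors from other protein-coding rows, and when any 1 library was left out. RPL32, single copy, had 767 and 543 CPM in the deletion libraries, against 494 and 285 CPM in wild type, and did not pass (0.75, SE 0.28, adjusted p = 0.0547). It passed as higher in 6 of the 10 alternatives: library totals (adjusted p = 0.00131), the offsets (0.00582), no filter (0.0273), DESeq2 (0.0229), without wild type 1 (0.0113) and without deletion 3 (0.00210). In the authors' deposited table its adjusted p was 0.0210.

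**Figure D3:**
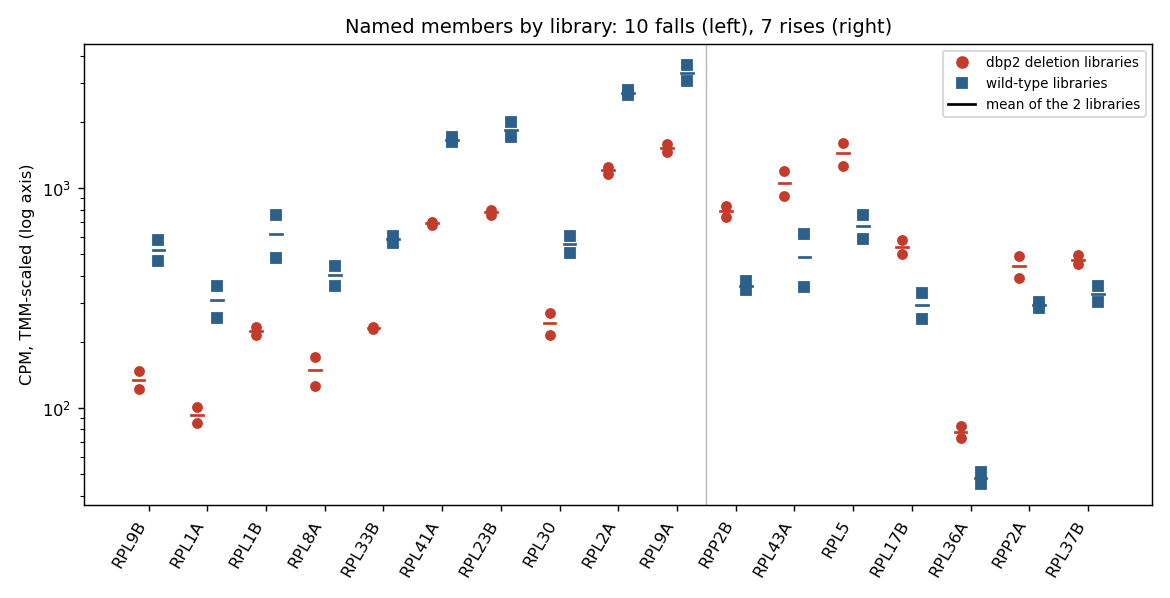
TMM-scaled CPM (y axis, log scale) in each dbp2 deletion library (red circles) and wild-type library (blue squares), with a line at each strain's mean. Shown are the 10 members with the largest called falls by rounded log2 fold change and the 7 called higher. RPL9A is shown and RPL23A is not, although both round to -1.14 and RPL23A fell slightly more (2.208-fold, against 2.199-fold). The strains do not overlap for any of the 17 genes, which were picked by their calls on these same counts. Over all features, both deletion libraries lay below wild type for 36.3% and above it for 38.3%. Wild type 1 and wild type 2 lie far apart for RPL43A (620 and 356 CPM).

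With the counts of each paralog pair summed, 16 of 46 proteins were lower and 2 higher, where 20.7% of features were called lower and 21.2% higher in the same fit. Under all alternatives, RPL1, RPL9, RPL30 and RPL23 stayed lower, and RPL5 and the P2 proteins stayed higher. Library totals left 7 proteins lower and 14 higher, and the offsets left 4 lower and 19 higher. With genes fitted singly, 9.52% of all features were lower and 40.9% higher under library totals. With the offsets these shares were 18.9% and 18.7%.

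A paralog's share of its pair's counts does not depend on a library's scaling factor, since both paralogs come from the same library. The abundance-dependent offsets can differ between paralogs, and the shares were taken without them. For example, RPL15A stood at -0.35 with TMM factors and 0.48 with the offsets, while RPL15B stood at -0.18 with both. The share of the A paralog did not overlap between the strains in 26 of 35 pairs (74.3%), and over all pairs of features tested the ratio did not overlap in 74.5%, so this count is not a property of the paralogs. With 2 libraries against 2, an exact permutation test of a share cannot give a two-sided p below 0.333, the value for each of these pairs. The more abundant paralog was the same in all 4 libraries in 30 of 35 pairs. In 13 pairs the strain means differed by at least 5 percentage points and in 6 by at least 10, and those 6 are given in full.

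RPL8A supplied 42.1% and 42.3% of RPL8 counts in the deletion libraries, against 63.2% and 72.1% in wild type, a difference of -25.4 points. RPL8A itself fell, with 171 and 126 CPM in the deletion libraries, against 444 and 359 CPM in wild type (-1.43, SE 0.22, adjusted p = 0.00120). RPL8B had 235 and 172 CPM in the deletion libraries, against 259 and 139 CPM in wild type, and the strains overlap (0.04, SE 0.29, adjusted p = 0.933). The leading paralog of RPL8 thus differed between the strains. The summed RPL8 counts were lower (-0.77, SE 0.23, adjusted p = 0.0265), a call lost under library totals (-0.32) and with the offsets (-0.27). That call was also lost without wild type 1, where the sum stood at -0.50, and without deletion 3 (-0.56).

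RPL43A supplied 44.1% and 41.3% of RPL43 counts in the deletion libraries, against 23.7% and 15.9% in wild type, a difference of 22.9 points. RPL43A had 1193 and 922 CPM in the deletion libraries, against 620 and 356 CPM in wild type (1.12, SE 0.27, adjusted p = 0.00946). RPL43B had 1510 and 1309 CPM in the deletion libraries, against 1992 and 1882 CPM in wild type (-0.46, SE 0.17, adjusted p = 0.0529), and it passed as lower with TMM factors from other protein-coding rows (adjusted p = 0.0378). With TMM factors the summed counts overlapped (0.02, SE 0.18, adjusted p = 0.924). They were 2703 and 2231 CPM in the deletion libraries, against 2611 and 2238 CPM in wild type. With this scaling the pair's total differed by less than the spread between libraries, while its makeup did not overlap. The sum passed as higher under library totals (0.47, adjusted p = 0.0311) and with the offsets (0.74, 0.00734).

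RPL33A supplied 66.2% and 62.8% of RPL33 counts in the deletion libraries, against 49.6% and 46.8% in wild type. RPL33B fell, with 233 and 230 CPM in the deletion libraries, against 608 and 564 CPM in wild type (-1.34, SE 0.18, adjusted p = 6.10e-04), and RPL33A had 457 and 388 CPM in the deletion libraries, against 597 and 495 CPM in wild type (-0.37, adjusted p = 0.147). RPL17A supplied 31.6% and 30.7% of its pair in the deletion libraries, against 50.2% and 42.9% in wild type, and its own level, 267 and 222 CPM in the deletion libraries, against 337 and 191 CPM in wild type, overlapped between the strains (-0.11, adjusted p = 0.764). RPL11A supplied 68.4% and 73.0% in the deletion libraries, against 81.6% and 86.9% in wild type. RPL41A supplied 24.9% and 19.8% in the deletion libraries, against 31.4% and 34.0% in wild type. It had 704 and 683 CPM in the deletion libraries, against 1713 and 1618 CPM in wild type (-1.26, SE 0.17, adjusted p = 5.80e-04), and the call held under all alternatives. RPL41B had 2120 and 2765 CPM in the deletion libraries, against 3743 and 3144 CPM in wild type, and did not pass (-0.50, adjusted p = 0.0590). It passed as lower with TMM factors from other protein-coding rows (adjusted p = 0.0477), with no filter (0.0490) and without deletion 3 (0.0162), and was positive with the offsets. The summed RPL41 counts were lower (-0.70, SE 0.17, adjusted p = 0.0110), a call lost under library totals (-0.25) and with the offsets (0.06). That call was also lost without wild type 1, where the RPL41 sum stood at -0.60. The summed RPL33 counts were lower (-0.79, adjusted p = 0.00710), a call lost under library totals (-0.34) and with the offsets (-0.19). The RPL17 sum did not pass (0.49, adjusted p = 0.108), but did so as higher under library totals (0.94) and with the offsets (1.05). Of these 6 pairs, RPL8, RPL11 and RPL41 are at least 95% identical in coding sequence (95.1%, 97.0% and 98.7%), and RPL43, RPL33 and RPL17 are not (89.6%, 91.0% and 92.4%). At the other end, RPL15A supplied 99.4% and 99.2% of RPL15 counts in the deletion libraries, against 99.4% and 99.4% in wild type, and the shares of RPL13A overlapped as well.

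**Figure D4:**
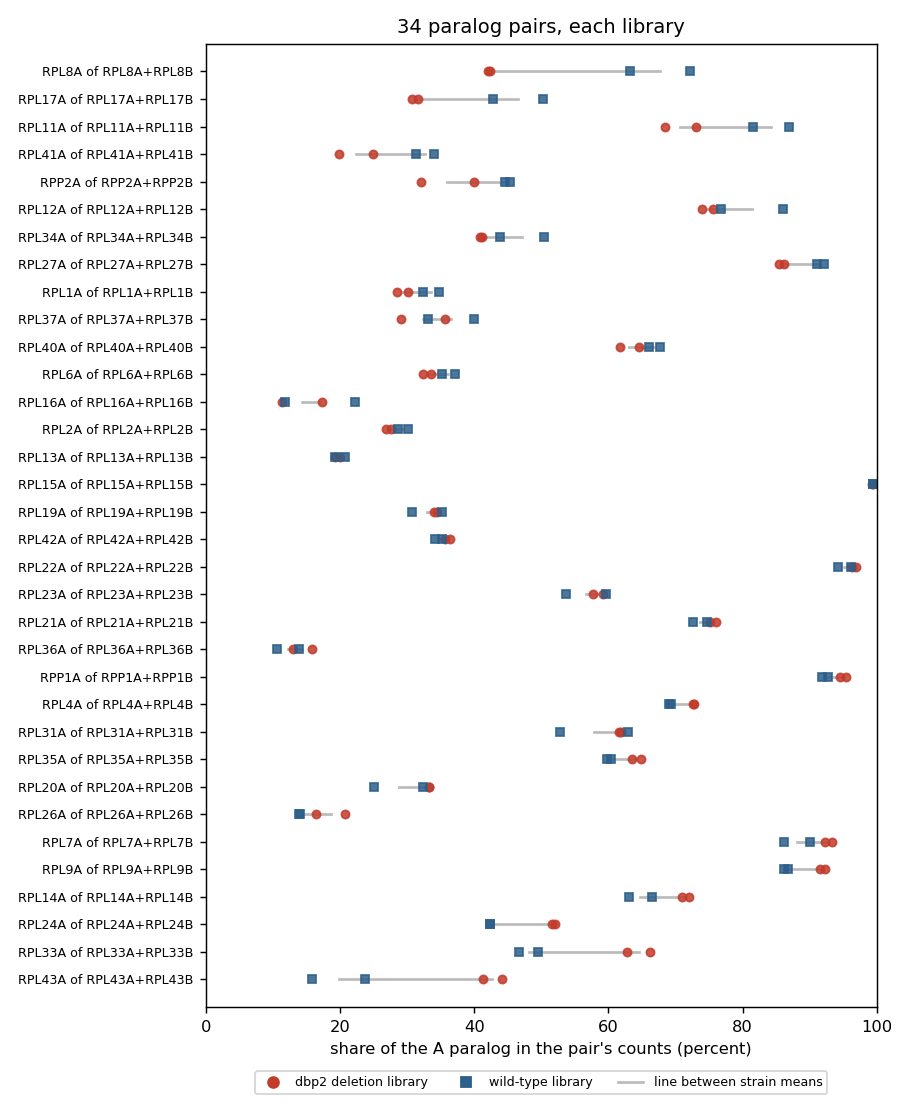
Share of the A paralog in the counts of its pair (x axis, percent) in each dbp2 deletion library (red circles) and wild-type library (blue squares) for 34 pairs, ordered by the difference of the strain means, which a grey line joins. The widest gaps are RPL8A (42.2% in the deletion strain, against 67.6% in wild type) and RPL43A (42.7%, against 19.8%), at opposite ends.

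Sequence upstream of the start codons was read from the R64 genome because Rap1 is a general activator of these genes. In the 500 bases before the start codon, the Rap1 letters ACCCANNCA occurred on either strand for 32 of 81 members (39.5%), 22 of 56 small subunit genes and 5.98% of 6000 protein-coding genes. The Abf1 consensus occurred for 42.0% of members and 46.1% of all genes, and the Reb1 letters TTACCCG for 6.17% and 10.1%. Overlaps between the motifs were not removed. Of the 32 members with the Rap1 letters, 10 were lower and 0 higher by edgeR (median -0.30), where 20.7% and 21.2% of all features were. At an unadjusted p below 0.05 or by DESeq2, 0 were higher. Under library totals 4 of the 32 were higher and 7 lower, where 40.9% and 9.52% of all features were. With the offsets 3 were higher and 4 lower, where 18.7% and 18.9% were. Of the 49 without the letters, 13 were lower and 7 higher (median -0.11), and the difference between these counts was not tested. For the 3 pairs of largest share difference, the same stretch upstream of each paralog is shown, with the Rap1 letters in capitals. In RPL33B the first run in capitals is the motif on the opposite strand.
RPL8A (chrVIII:36226-36295, minus strand): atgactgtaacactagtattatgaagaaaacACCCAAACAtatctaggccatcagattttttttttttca
RPL8B (chrXII:48830-48899, minus strand): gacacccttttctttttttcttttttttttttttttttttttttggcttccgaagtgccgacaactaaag
RPL43A (chrXVI:653846-653915, plus strand): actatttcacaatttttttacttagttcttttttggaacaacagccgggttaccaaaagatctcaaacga
RPL43B (chrX:607985-608054, plus strand): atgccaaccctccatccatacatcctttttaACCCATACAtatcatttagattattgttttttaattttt
RPL33A (chrXVI:281832-281911, plus strand): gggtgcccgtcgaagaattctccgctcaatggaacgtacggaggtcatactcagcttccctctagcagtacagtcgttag
RPL33B (chrXV:779616-779695, minus strand): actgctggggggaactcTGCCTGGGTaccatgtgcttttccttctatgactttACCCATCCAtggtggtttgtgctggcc
In each of these 3 pairs the paralog with the letters (RPL8A, RPL43B and RPL33B) was the one with the lower log2 fold change. Over all 16 pairs in which a single paralog has the letters in its 500 bases, that paralog had the lower value in 5 and the higher in 11, so the 3 pairs are not typical of the rest. A match of letters is a description and does not show that the factor binds.

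Levels per length differed far more between members than between strains. Per kilobase of coding sequence, CPM ran from 38.5 to 31320 over the members in the deletion strain (median 984), against 70.5 to 44150 in wild type (median 1168). RPL41B was highest in both strains, and 8 of the 10 highest members were the same. That rank depends on dividing by the RPL41B coding length of 78 bases, and the split from RPL41A is uncertain. By mean CPM without the division, RPL41B had 2443 in the deletion strain and 3443 in wild type, against 6960 and 13050 for RPL3. Across the 81 genes the order of levels correlated between the strains at a Spearman rho of 0.931, a description over genes of the same 4 libraries. RPL3, RPL10, RPL28 and RPL15A together took 34.6% and 35.3% of member counts in the deletion libraries, against 37.7% and 39.9% in wild type.

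The genes that act on large subunit proteins were read from the same fit. Of 14 regulators of ribosomal protein gene transcription, 7 were higher (median 0.59), where 21.2% of all features were. Under library totals 13 were higher (median 1.04), where 40.9% of all features were, and with the offsets 7 (0.65), where 18.7% were. By edgeR 0 were lower, 1 was lower at an unadjusted p below 0.05, and DESeq2 called 0 lower. IFH1, the coactivator that binds Fhl1 at these promoters, had 180 and 151 CPM in the deletion libraries, against 61.6 and 76.1 CPM in wild type (1.26, SE 0.21, adjusted p = 0.00157), a call kept under all alternatives. The activator gene SFP1 (1.20), the gene CRF1 of a corepressor that competes with Ifh1 (1.18), the kinase gene SCH9 (1.10), HMO1 (0.81), the TORC1 subunit gene KOG1 (0.64) and ABF1 (0.55) were also higher, and each lost its call without at least 1 library. RAP1 (0.15, adjusted p = 0.569) and FHL1 (-0.61, adjusted p = 0.0884) did not pass, although FHL1 passed as lower without wild type 1 (adjusted p = 0.0101) and RAP1 as higher under library totals (0.0380). Of 5 dedicated chaperones and importers, ACL4, the chaperone of Rpl4, was lower (-0.76, adjusted p = 0.0119), a call lost under library totals, with the offsets, and without wild type 2 or deletion 3. Of 7 enzymes that methylate large subunit proteins, RKM1 (-0.94, adjusted p = 0.00425) and HPM1 (-0.93, adjusted p = 0.00395) were lower, each lost only under library totals. The shares called lower were 20.0% of the chaperones and importers and 28.6% of these enzymes, where 20.7% of all features were.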

How the data were processed

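The authors deposited a sense-strand table of raw counts, 1 row per feature, and an edgeR table of log2 fold changes, mean log2 CPM, p-values and adjusted p-values, per the file headers. Genome build R64 (sacCer3) and edgeR are named in the submitters' processing notes, while the sources used here do not give the aligner, counter, edgeR version or test. In the authors' deposited table, 23 members were lower and 8 higher at an adjusted p below 0.05.

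The strains were compared in R 4.3.3 with edgeR 4.0.16 (filterByExpr, TMM factors, glmQLFit, glmQLFTest), deletion over wild type, with Benjamini-Hochberg adjustment over 6124 features. CPM is TMM-scaled, and the SE is the log2 fold change divided by the root of F. All 81 members passed the filter, with at least 422 counts in every library, so counting error is small beside the spread between libraries. The script was tested on simulated data. Log2 CPM correlated at 0.985 between the deletion libraries and 0.981 between the wild-type libraries, and counts of replicates differed by more than sampling noise. Values per library are given for the 10 largest called falls and rises with a mean count of 50 or more. Falls were ranked by rounded values, so RPL9A was taken and RPL23A was not, although both stood at -1.14. Such values are also given for the leading single-copy member of each role and the 6 pairs of largest share difference. Others were chosen after their values were seen. The values of 1 member are not reported here, but it is in all counts and medians. Members, roles and gene lists were chosen with earlier results of these data known. The promoter table named in the plan was not used here, and 500 bases before the start codon were read instead. Gene names and coordinates come from RefSeq's R64 annotation.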

Additional observations from a re-analysis of the deposited data

How the results depend on the processing

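Each result was recomputed under RLE factors, library totals, TMM factors from protein-coding rows other than ribosomal protein genes, abundance-dependent offsets, no filter on low counts, DESeq2 and without each library. Members called lower (23) were 14 under library totals and 11 with the offsets. Members called higher (7) were 23 under each of these, and 3 to 7 without a library, with 3 without wild type 2 and 4 without deletion 2. The members' median (-0.23) was 0.22 and 0.27 under the same settings. Proteins with summed counts called lower (16) were 7 and 4, and those called higher (2) were 14 and 19, with 2 to 4 without a library (4 without wild type 1 or deletion 3) and 3 with no filter and with DESeq2. Over all features, 9.52% were lower and 40.9% higher under library totals, and 18.9% and 18.7% with the offsets. Library totals moved the median of all features by 0.45. Among 24 pairs under 95% coding identity, 16 had shares that did not overlap, against 26 of all 35 pairs. Over all pairs of features tested, 74.5% did not overlap. Values of opposite sign with the offsets included RPL28 0.16, RPL10 0.25, RPL38 0.10, RPL33A 0.14, RPL17A 0.30, RPL43B 0.23, RPL22A 0.34 and RPL41B 0.27. Further members that were negative with TMM factors passed as higher with the offsets. They were RPL15A (0.48, adjusted p = 0.0292), RPL13B (0.60, 0.0154), RPL14A (0.56, 0.0249), RPL21A (0.53, 0.0443) and RPL40A (0.48, 0.0491). Under library totals, values of opposite sign included RPL33A 0.07, RPL17A 0.34, RPL22A 0.10, RPP1B 0.14 and RPL15A 0.10. With the restricted TMM factors, RPL8B stood at -0.01. Without a library, RPP0 ran from -0.17 to 0.24, RPL39 from -0.05 to 0.39, RPL17A from -0.42 to 0.35, RPL8B from -0.31 to 0.55 and RAP1 from -0.03 to 0.40. The cause of these changes was not tested.

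No paired analysis was possible because the columns of the strains share only the number 2 (1 and 2 in wild type, 2 and 3 in the deletion strain). The labels number the replicates of each strain 1 and 2, and which deletion column is which is not stated.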
